A study of Saccharomyces cerevisiae with 10 samples.

Results

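The kinetochore is the protein machine that joins each chromosome to the spindle, and its subunit genes in Saccharomyces cerevisiae are described here across yeast with and without αENaC, the alpha subunit of a sodium channel of epithelia. The genes were taken by symbol from the platform annotation: 34 subunits of the inner kinetochore, of the MIND, Ndc80 and DASH complexes, of the CBF3 complex, and Spc105. Of these, 33 were measured, each by 1 probe set, among 5449 genes named by 5498 probe sets. NDC10 was not analysed here. The tested yeast carried prs426GPD-αENaC-HA, a plasmid for HA-tagged αENaC (3 arrays). The comparison yeast carried the vector pRSGPD426 (7 arrays). Vectors of this family are multicopy, are selected through URA3 and carry the constitutive GPD promoter, so both groups bear such a plasmid. The labels name no host strain and no clone. All cultures grew at 26 °C in selective medium to mid log phase, and total RNA was read on single-colour arrays.

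Kinetochores are built from the DNA outward. The CBF3 complex binds the centromere sequence, and a nucleosome with the histone variant Cse4 sits there. Mif2 and the Ctf19 group of proteins bind that nucleosome. The MIND complex bridges them to the Ndc80 complex and Spc105, which face the microtubule, and the DASH complex forms rings around the microtubule. Budding yeast builds a small kinetochore on a short, defined centromere sequence. Many of these genes are essential.

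A level below is log2 of the signal in units of the array's mean signal plus 0.03, after quantile normalization. A difference is αENaC minus control on that scale, given with its SE and with n = 3 and 7. Precision is limited by how many arrays there are. The numbers in the sample titles fall into 3 runs, called sets here although the labels name no batch. Set 1 (1 to 4) is αENaC 1 and 2 and controls 1 and 2. Set 2 (5 and 6) is αENaC 3 and control 3, and set 3 (11 to 14) is controls 4 to 7. Arrays of 1 group were closer within a set (median r = 0.997) than across sets (0.959). A p-value here measures spread among arrays, which may in part be technical. A level of −2.03, the 95th percentile of 1746 probe sets with names outside the S. cerevisiae annotation, served as the background. On average 6 of the 33 kinetochore genes lay below it: MTW1, NUF2, NDC80, SPC24, CTF19 and CTF13. Of mating-type markers, 4 of 4 of α cells, 2 of 7 of a cells and 6 of 6 of haploids of both types lay above it, as did 3 of 12 meiotic genes.

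Across the kinetochore, transcript levels leaned low in αENaC yeast, by small amounts, and 1 gene passed the test. NNF1 fell, no member rose, and the other 32 were not called. The test was limma over all 5498 probe sets with Benjamini-Hochberg adjustment at 0.05, which called 1.73% of all probe sets, 0.364% lower and 1.36% higher. Of the 33 differences 26 were negative, and they ran from −0.51 to 0.39 with a median of −0.12, against 0.02 over all probe sets tested. Set 1 alone gave a median of −0.16 and set 2 one of −0.25, where the medians over all probe sets were −0.02 and −0.0010. At an unadjusted p under 0.05 there were 7 members, all lower, against 18.2% of all probe sets (7.91% lower and 10.2% higher). Every αENaC array lay below every control for 6 members, NNF1, DUO1, ASK1, DAM1, OKP1 and MIF2, and above every control for none, against 3.62% and 4.97% of all probe sets. That separation was seen after quantile normalization. In units of the array mean before it, the groups overlapped across sets for all 6. Within sets 1 and 2 they stayed apart on that scale except for DAM1, with αENaC 2 at 0.476 and control 1 at 0.469. In both sets 1 and 2 the difference was negative for 24 members, against 28.0% of all probe sets. For 20 members each of the 5 pairs of an αENaC and a control array within a set had the αENaC array lower, and for 2 members higher, against 22.9% and 19.8%. The pairs of set 1 share near-identical arrays and are not independent.

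**Figure D1:**
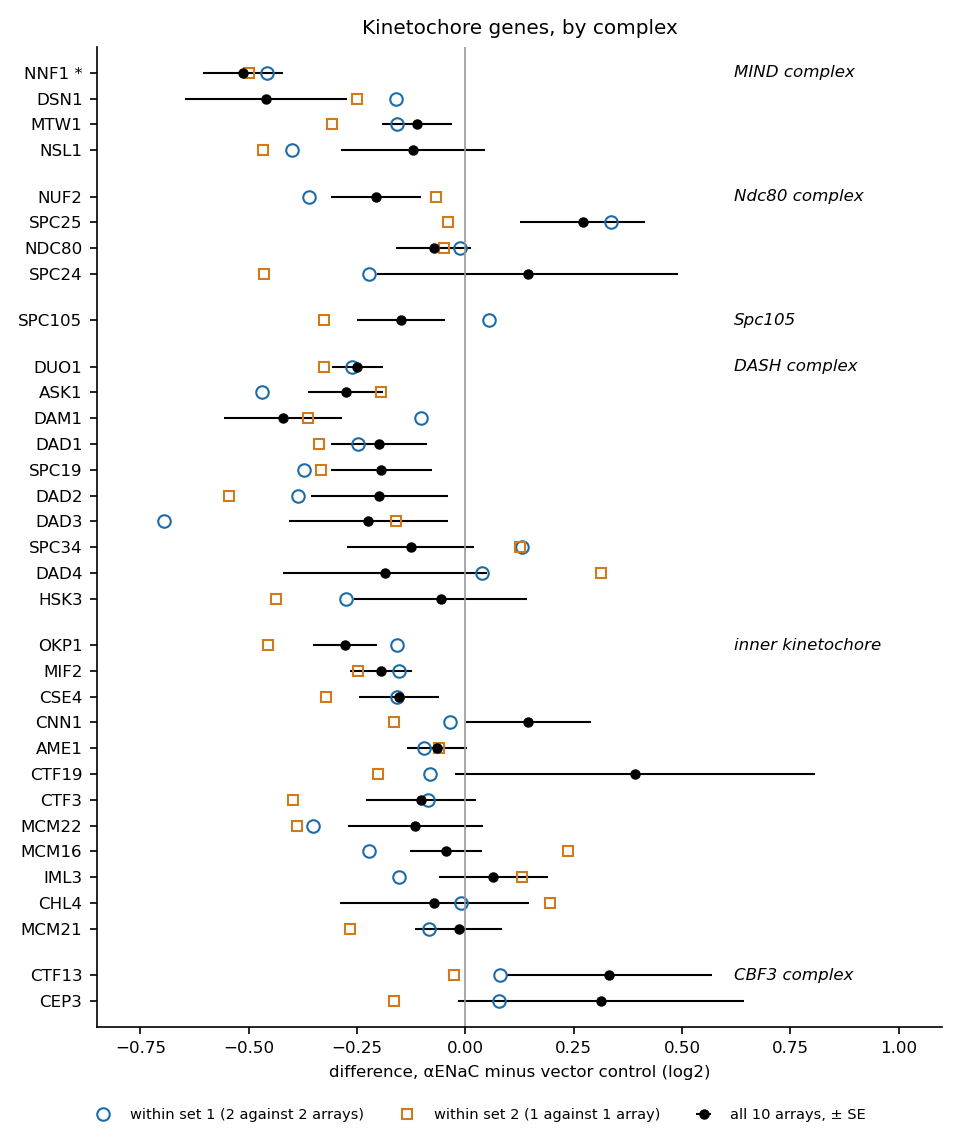
Difference between αENaC and vector control yeast (log2, x axis) for the 33 kinetochore genes (y axis), ordered by complex and by p. Black points with bars are the fit over 3 and 7 arrays with its SE, open circles the difference within set 1 and open squares within set 2. The star marks NNF1, the member past the test at −0.51, and most MIND and DASH symbols lie left of 0.

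With the title number set as a fixed block, 13 members were called lower and none higher, while 6.86% of all probe sets were lower and 7.38% higher. The 13 were NNF1, DSN1 and NSL1 of MIND, NUF2 of the Ndc80 complex, DUO1, ASK1, DAD1, SPC19, DAD2 and DAD3 of DASH, and OKP1, CSE4 and MCM22 of the inner kinetochore. With the set as a random block 10 were lower and none higher, against 4.71% and 6.51%. Set 3 holds controls alone. In set 1 the 2 arrays of each group were near-identical (r = 0.999 for αENaC and 0.998 for controls). Controls 5 to 7 of set 3 were near-identical too (r from 0.997 to 0.998). The spread behind these calls may therefore be largely technical, and there are fewer distinct arrays than the n of 3 and 7. With near-identical arrays averaged and no block, no member was called, and 0% of all genes. With the replicate number as a block, which uses αENaC 1 to 3 and controls 1 to 3, limma called no member, but it called 0% of all probe sets. At an unadjusted p under 0.05 that fit had 16 members lower, against 10.1% of all probe sets.

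The MIND complex held the member that passed. NNF1 (YJR112W), an essential subunit that pairs with Mtw1, had levels of −1.77, −1.88 and −1.77 in αENaC 1 to 3, against −1.35, −1.38, −1.27, −1.53, −1.19, −1.16 and −1.17 in controls 1 to 7. The αENaC arrays lay together at the low end, 0.24 below the nearest control, control 4. The difference was −0.51 ± 0.09 (adjusted p = 0.0226), a ratio of 0.700, and it was −0.46 within set 1 and −0.50 within set 2. In units of the array mean before normalization, NNF1 had 0.325, 0.278 and 0.249 in αENaC 1 to 3, against 0.414, 0.402, 0.331, 0.294, 0.355, 0.369 and 0.369 in controls 1 to 7. On that scale control 4 lay below αENaC 1, so the groups overlapped across sets, while within sets 1 and 2 they stayed apart. Its call was lost without αENaC 1 (adjusted p = 0.137), αENaC 2 (0.159), control 5 (0.0582), control 6 (0.0538) or control 7 (0.0560). With the replicate block the difference was −0.47 (adjusted p = 0.140), and over 24 alternatives, 13 of which called it, adjusted p ran from 5.77e-07 to 0.998.

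DSN1, whose phosphorylation by Aurora B opens MIND for binding to the inner kinetochore, had levels of −1.75, −1.69 and −1.28 in αENaC 1 to 3, against −1.59, −1.52, −1.03, −0.91, −0.87, −0.93 and −0.92 in controls 1 to 7. Its difference was −0.46 ± 0.19 (adjusted p = 0.230). The set 1 arrays of both groups were low, so the values within sets were smaller, at −0.16 and −0.25. MTW1, which names the complex, was at −2.13, −2.08 and −2.14 in αENaC 1 to 3, against −1.95, −1.95, −1.83, −2.15, −1.96, −2.10 and −2.11 in controls 1 to 7, so all 3 αENaC arrays were below background. The fitted difference of −0.11 ± 0.08 (adjusted p = 0.493) therefore gives no fold. NSL1, the remaining subunit, was at −0.12 ± 0.17 (adjusted p = 0.732) over all arrays, but at −0.40 within set 1 and −0.47 within set 2. Its set 3 controls, at a mean of −1.63, lay as low as αENaC 3, at −1.64. All 4 MIND genes were lower in αENaC in each of the 5 within-set pairs. The median of the complex was −0.29, with −0.28 in set 1 and −0.39 in set 2.

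The Ndc80 complex, the main microtubule-binding element, was mostly below background, with 2 differences negative and 2 positive over all arrays. Within set 1 the difference was negative for 3 of the 4 genes and within set 2 for all 4. SPC25, which with Spc24 docks the complex onto MIND, was the one member above background and had the highest difference there. Its levels were −0.41, −0.48 and −0.14 in αENaC 1 to 3, against −0.80, −0.76, −0.11, −0.61, −0.61, −0.73 and −0.69 in controls 1 to 7. Control 3 was level with αENaC 3, so the groups overlapped, and the difference of 0.27 ± 0.14 (adjusted p = 0.348) was 0.34 within set 1 and −0.04 within set 2. NUF2, the partner of Ndc80 in the microtubule-binding head, was at −2.48, −2.45 and −2.03 in αENaC 1 to 3, against −2.14, −2.08, −1.96, −2.24, −2.15, −2.07 and −2.17 in controls 1 to 7. Of these arrays 2 were above background, and the difference was −0.21 ± 0.10 (adjusted p = 0.329). NDC80 was at −2.49, −2.45 and −2.26 in αENaC 1 to 3 and −2.55, −2.36, −2.22, −2.24, −2.32, −2.28 and −2.32 in controls 1 to 7, below background on all arrays, as was SPC24, whose αENaC arrays were lower in all 5 within-set pairs. So for NDC80 and SPC24 these arrays give a bound and no fold. SPC105, the scaffold on which checkpoint proteins assemble, was at −0.85, −0.84 and −0.85 in αENaC 1 to 3, against −0.94, −0.86, −0.52, −0.50, −0.72, −0.72 and −0.62 in controls 1 to 7. The αENaC arrays sat inside the control range, with a difference of −0.15 ± 0.10 (adjusted p = 0.455) that was 0.05 within set 1 and −0.33 within set 2.

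The DASH complex, which lets kinetochores hold on to shortening microtubules and occurs in fungi, leaned low: all 10 differences were negative, from −0.42 to −0.06, and none passed. DUO1 had the smallest p. Its levels were −1.24, −1.32 and −1.32 in αENaC 1 to 3, against −1.01, −1.02, −0.99, −1.08, −1.02, −1.09 and −1.08 in controls 1 to 7. The groups were 0.15 apart with little spread in either. Before normalization they overlapped across sets, with 0.486 array means in αENaC 1 against 0.409 in control 3. The difference was −0.25 ± 0.06 (adjusted p = 0.0645), with −0.26 in set 1 and −0.33 in set 2. ASK1 had −1.19, −1.21 and −0.96 in αENaC 1 to 3, against −0.78, −0.69, −0.77, −0.93, −0.94, −0.94 and −0.86 in controls 1 to 7. The gap between αENaC 3 and the lowest control was 0.02, and the difference was −0.28 ± 0.09 (adjusted p = 0.133). DAM1, the main microtubule-binding subunit and a target of Aurora B, had −1.29, −1.22 and −1.24 in αENaC 1 to 3, against −1.19, −1.12, −0.88, −0.59, −0.64, −0.72 and −0.67 in controls 1 to 7. Its controls were split by set, with set 3 high, so its difference of −0.42 ± 0.14 (adjusted p = 0.147) compares with −0.10 within set 1 and −0.36 within set 2.

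DAD1, SPC19, DAD2 and DAD3 were at −0.20, −0.19, −0.20 and −0.22 over all arrays (adjusted p from 0.370 to 0.546). Within sets 1 and 2 they were at −0.25 and −0.34, −0.37 and −0.33, −0.39 and −0.55, and −0.69 and −0.16. The within-set differences of SPC19 and DAD2 were larger, and their set 3 controls, at means of −1.16 and −2.09, lay below the controls of set 1, at −0.86 and −1.78, and of set 2, at −0.88 and −1.43. HSK3 showed the same arrangement, with −0.06 over all arrays against −0.28 and −0.44 within sets. SPC34 and DAD4 went the other way: they were higher in αENaC in each within-set pair, at 0.13 and 0.13 and at 0.04 and 0.31 within sets 1 and 2, and their set 3 controls were high. So 8 of the 10 genes were lower in all 5 pairs and 2 were higher in all 5. The median of the complex was −0.20, with −0.27 in set 1 and −0.33 in set 2.

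**Figure D2:**
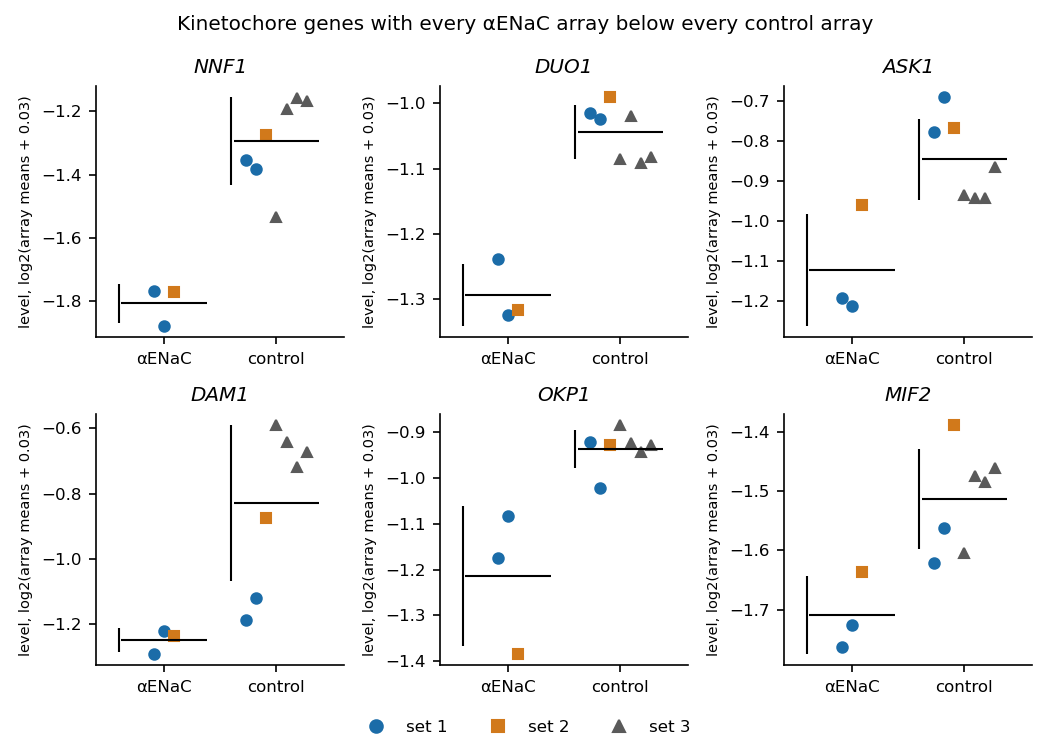
Levels, log2(array means + 0.03) after quantile normalization, of the 6 kinetochore genes with every αENaC array below every control array on that scale. In each panel αENaC is at left and control at right. Points are arrays coloured by title number set, horizontal lines are group means and vertical bars ± 1 SD. The gap is 0.24 for NNF1 and 0.02 for ASK1 and MIF2, and the DAM1 controls separate by set.

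The 12 inner kinetochore genes had a median of −0.07, with −0.12 in set 1 and −0.22 in set 2, and none passed. OKP1, an essential subunit of the COMA complex that contacts the centromeric nucleosome, had −1.18, −1.08 and −1.38 in αENaC 1 to 3, against −0.92, −1.02, −0.93, −0.88, −0.92, −0.94 and −0.93 in controls 1 to 7. The controls were tight and αENaC 3 was lowest. The difference was −0.28 ± 0.07 (adjusted p = 0.0903), with −0.16 in set 1 and −0.46 in set 2. MIF2, the yeast CENP-C, which links the centromeric nucleosome to MIND, had −1.76, −1.73 and −1.64 in αENaC 1 to 3, against −1.62, −1.56, −1.39, −1.60, −1.47, −1.49 and −1.46 in controls 1 to 7. Its groups were 0.02 apart and the difference was −0.19 ± 0.07 (adjusted p = 0.193). CSE4, the centromeric histone, had −1.11, −1.09 and −1.43 in αENaC 1 to 3, against −0.96, −0.93, −1.11, −0.999, −1.11, −1.17 and −1.13 in controls 1 to 7. The set 1 αENaC arrays lay within the control range, and the difference was −0.15 ± 0.09 (adjusted p = 0.4001), with −0.16 in set 1 and −0.32 in set 2. MCM22, of the Ctf3 trio with CTF3 and MCM16, was at −0.12 ± 0.16 (adjusted p = 0.730) over all arrays and at −0.35 and −0.39 within sets. Of the other COMA genes, AME1 was at −0.07 over all arrays, and at −0.10 and −0.06 within sets 1 and 2. MCM21 was at −0.02 over all arrays but lower in all 5 within-set pairs, at −0.08 and −0.27. CTF3 was also lower in all 5 pairs, at −0.10 over all arrays and −0.09 and −0.40 within sets. CNN1 turned sign, with 0.15 over all arrays and −0.03 and −0.16 within sets. MCM16, IML3 and CHL4 were negative within set 1, at −0.22, −0.15 and −0.01, and positive within set 2, at 0.24, 0.13 and 0.20. In set 1 all 12 inner genes had a negative difference, and in set 2 it was 9 of 12.

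The positive differences at the base of the kinetochore came with a level that depended on the set. CEP3, the CBF3 subunit with a zinc cluster that contacts centromere DNA, had −0.81, −0.81 and −2.08 in αENaC 1 to 3, against −0.92, −0.84, −1.91, −1.76, −1.83, −1.73 and −1.80 in controls 1 to 7. The 4 set 1 arrays were high in both groups, by 1.01 on average over the other 6 arrays. The difference of 0.31 ± 0.33 (adjusted p = 0.649) was 0.08 within set 1 and −0.17 within set 2. CTF13, the F-box subunit of CBF3, was below background on all arrays, with −3.01, −2.86 and −3.69 in αENaC 1 to 3 and −3.10, −2.94, −3.66, −3.63, −3.71, −3.94 and −3.67 in controls 1 to 7. CTF19, of COMA, was above background on 1 array, with −2.22, −2.15 and −3.56 in αENaC 1 to 3 against −2.19, −2.02, −3.36, −3.48, −3.33, −3.42 and −3.45 in controls 1 to 7. The 4 set 1 arrays were the highest for CTF13, CTF19 and SPC24 too, but at values at or below background that give no fold. The fitted difference of CTF19 was 0.39 ± 0.42 (adjusted p = 0.651) over all arrays, and −0.08 and −0.20 within sets. Set 1 holds 2 of 3 αENaC arrays but 2 of 7 controls, so in the fit over all arrays a high set 1 counts toward αENaC. A low set 1, as for DSN1, counts the other way, toward a negative difference. How much either adds was not tested.

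**Figure D3:**
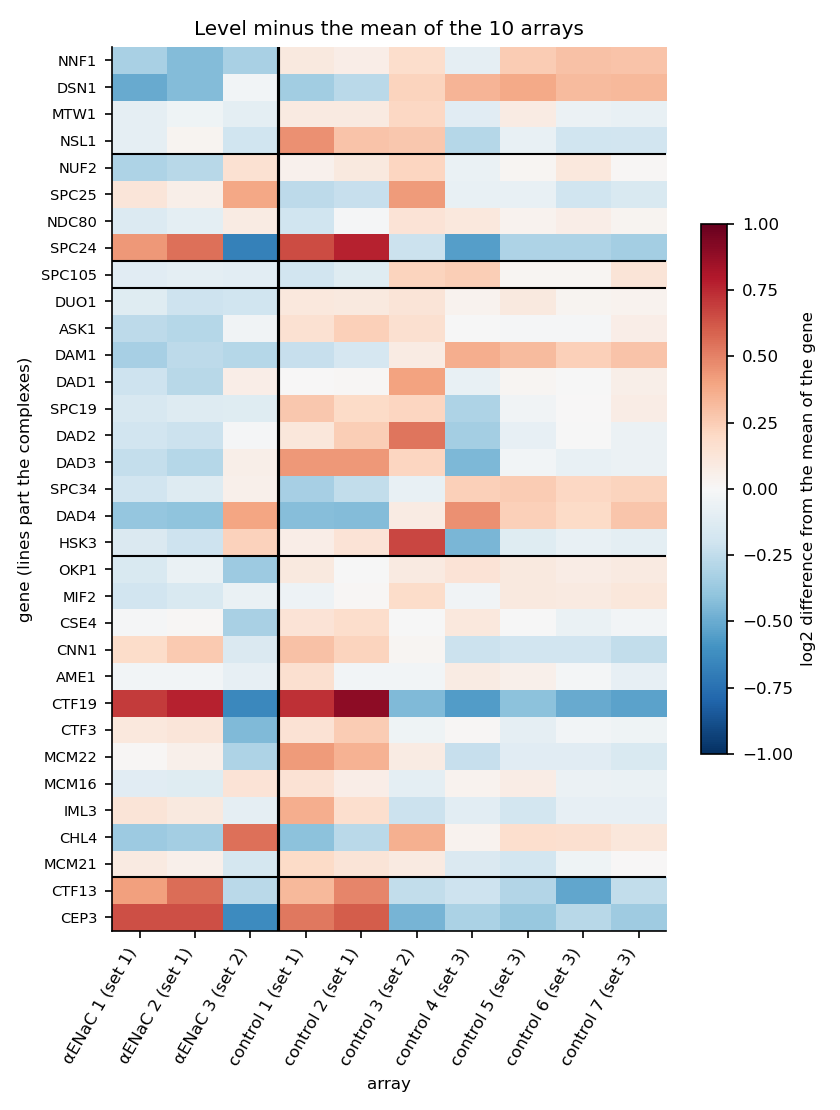
Level of each kinetochore gene on each array minus its mean over the 10 arrays (log2, colour scale from −1 to 1), with αENaC arrays left of the vertical line and controls right of it. Horizontal lines part the complexes in the order MIND, Ndc80, Spc105, DASH, inner kinetochore and CBF3. SPC24, CTF19, CTF13 and CEP3 are red in the 4 set 1 arrays of both groups, and the MIND and DASH genes are mostly blue at left.

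After quantile normalization, the 33 genes summed to 12.08 to 12.60 array means in αENaC arrays, against 12.97 to 14.26 in control arrays. On that scale, used for all sums here, the groups did not overlap. In array means before normalization the groups overlapped, both for the 33 genes and for MIND alone. The separation of these sums therefore depends on the normalization. For MIND alone the sums were 1.05 to 1.13 in αENaC and 1.29 to 1.51 in controls. The sums of DASH were 4.10 to 5.25 in αENaC and 4.82 to 5.83 in controls, and those of the inner kinetochore 4.15 to 4.71 in αENaC and 4.41 to 5.24 in controls, so these overlapped. Among the other gene lists described below, the sums also lay apart for the cohesin and condensin, spindle pole body and G2/M genes, lower in αENaC. Those of the meiosis and sporulation genes lay apart too, but higher in αENaC, and in the remaining lists the sums overlapped. So the separation was not particular to the kinetochore genes. These sums are descriptions with no test. In bulk samples fewer cells in a phase of the cycle and less RNA per cell cannot be told apart.

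Genes that work with these subunits gave no call in any of 7 lists in the fit over all arrays without a block. Of 10 other kinetochore partners, which include assembly factors and minor subunits, 7 were negative with a median of −0.07, and MHF1 was at −0.41 ± 0.14 (adjusted p = 0.166) and SCM3, the chaperone of Cse4 and below background, at −0.19 ± 0.07 (adjusted p = 0.195). The 12 checkpoint and Aurora B genes were split evenly around a median of 0.0045. Among them SGO1, the shugoshin that guards cohesion at centromeres, was at −0.40 ± 0.12 (adjusted p = 0.115) and NBL1, below background, at 0.37 ± 0.17 (adjusted p = 0.279). Of 14 cohesin and condensin genes 11 were negative at a median of −0.11. The cohesin kleisin gene MCD1 was at −0.30 ± 0.10 (adjusted p = 0.159) and SMC1 at −0.21 ± 0.08 (adjusted p = 0.225). Of 16 spindle microtubule genes 12 were negative at a median of −0.13, where the kinetochore members had −0.12. The kinesin genes KIP1 and KAR3 were at −0.25 ± 0.08 (adjusted p = 0.126) and −0.22 ± 0.07 (adjusted p = 0.147). Of 15 spindle pole body genes 12 were negative at a median of −0.17. KAR1, whose probe set lay below background, was at −0.36 ± 0.08 (adjusted p = 0.0516) and BBP1 at −0.37 ± 0.12 (adjusted p = 0.148). The 4 monopolin genes had a median of −0.16, with MAM1, below background, at −0.38 and CSM1 at −0.27. The 17 anaphase-promoting complex genes leaned the other way, with 12 positive and a median of 0.07. There the securin gene PDS1 was at −0.36 ± 0.11 (adjusted p = 0.114) and CDC16 at 0.18 ± 0.07 (adjusted p = 0.206).

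Calls did appear in 6 of these 7 lists once the set entered as a fixed block, a fit that called 6.86% of all probe sets lower and 7.38% higher. Lower were CBF1 and SKP1 among the partners, SGO1 among the checkpoint genes, SMC3 and SMC4 of cohesin and condensin, BIM1 and STU2 on microtubules, KAR1, BBP1 and SPC110 of the spindle pole body, and PDS1. Higher were NBL1, APC1 and CDC27. These were singled out by that fit, after their values were seen. The replicate block called none of them, as it called no probe set.

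Markers of cell cycle phases were measured beside the kinetochore genes, and their part in the result was not tested. Of 11 measured G2/M genes 9 were negative at a median of −0.21, with −0.34 in set 1 and −0.16 in set 2. HOF1, which acts in cytokinesis, fell by 0.40 ± 0.08 (adjusted p = 0.0344) and was the 1 gene called. With the replicate block it was at −0.38 (adjusted p = 0.146) and was not called. The kinase gene KIN3 was at −0.40 ± 0.09 (adjusted p = 0.0581) and the mitotic cyclin gene CLB1 at −0.87 ± 0.20 (adjusted p = 0.0615). The summed level of the 11 after quantile normalization was 7.15 to 7.66 array means in αENaC, against 7.90 to 9.50 in controls. All 11 were above background. With the set as a fixed block 7 of the 11 were called lower and none higher, against 6.86% and 7.38% of all probe sets, and with the replicate block none was called. The 14 late G1 genes had a median of −0.25 over all arrays but −0.01 in set 1 and −0.03 in set 2, with none called. Their summed level was 12.78 to 15.54 in αENaC and 12.44 to 19.08 in controls. The 7 histone genes had a median of −0.13 (sums of 46.10 to 50.83 in αENaC and 48.14 to 54.84 in controls). The 12 M/G1 genes had a median of −0.15 (sums of 26.03 to 28.67 in αENaC and 26.13 to 37.37 in controls). Neither list had a call. RNR1 was at −0.54, RFA1 at 0.21, HTB2 at −0.26, HHT1 at −0.23, MCM3 at −0.27 and SCW11 at −0.51 (adjusted p from 0.104 to 0.331).

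**Figure D4:**
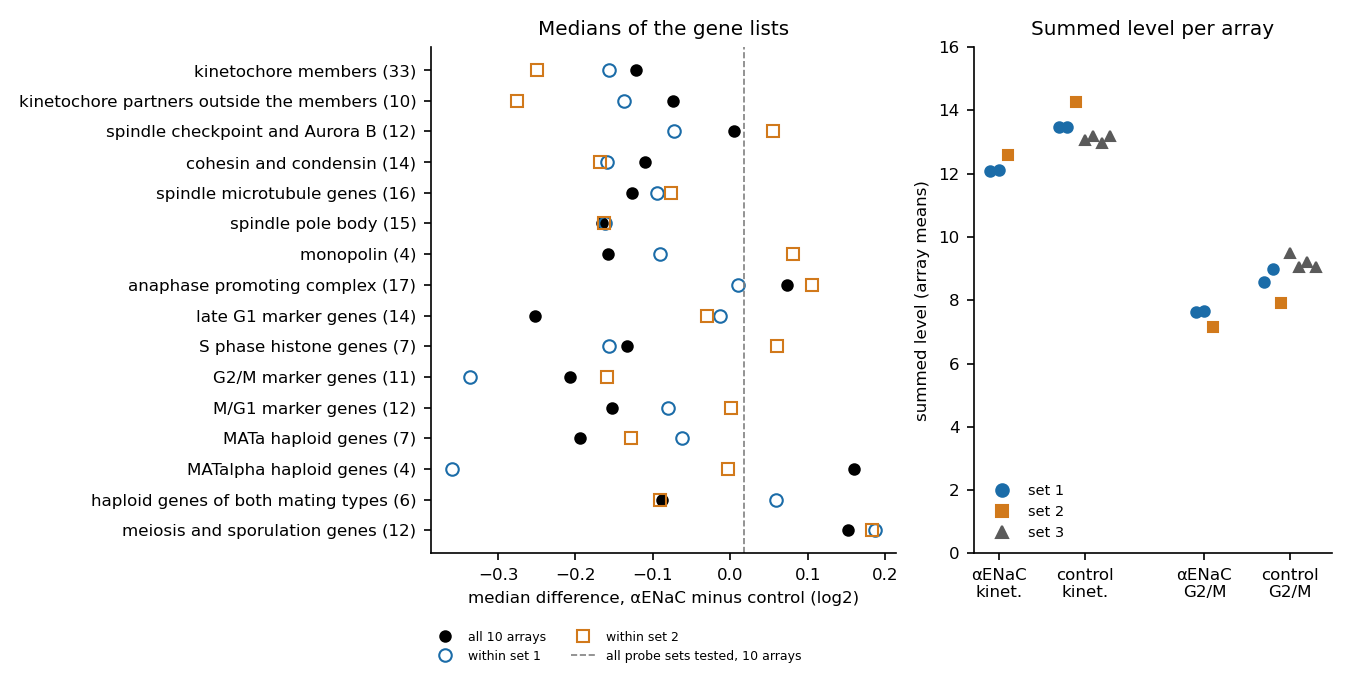
Left, median difference between αENaC and control (log2, x axis) of each gene list (y axis, measured genes in brackets) over all arrays and within sets 1 and 2, with a dashed line at the median of all probe sets tested. Right, summed level per array (array means after quantile normalization) of the kinetochore and G2/M lists, αENaC left of control, with points coloured by set. The αENaC arrays sum to 12.08 to 12.60 for the kinetochore list and 7.15 to 7.66 for the G2/M list, below all controls.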

How the data were processed

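Per the labels' protocols, hot phenol extracts of total RNA were cleaned on columns and made into cRNA with the Affymetrix 3′ IVT Express kit. The deposited values are scores. Judged by their mean and SD, they are z scores taken per array on linear intensities, over 10715 probe sets. No source used here gives the authors' probe summary or background correction. The design had allowed for log2 or linear values, and the conversion followed once the z scores were found. The minimum of each array was set to 0 and the array mean to 1, so an additive background, if present, is unknown. Values plus 0.03 were logged (log2) and quantile normalized, a scale that understates changes of low genes. Probe sets were named by the platform annotation, and old symbols were replaced by way of gene identifiers in the R64 RefSeq table. Those with 1 S. cerevisiae gene number 5498, other names 1746, no name here 3470 and several genes 1. For a gene with several probe sets, the one with the smallest p is given.

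The test was limma 3.58.1 under R 4.3.3 (lmFit with eBayes, 2-sided, 8 residual degrees of freedom and no covariate), adjusted by Benjamini-Hochberg over all 5498. Its steps were run on simulated data with independent noise in each array, no set effect and no near-identical arrays. The check required recovery only of changes larger than any member's difference, so it does not bear on the calls given here. The members and lists were chosen with earlier results of these data known. Values per array are given for members past the threshold and, in each complex, for the 3 with the smallest p and the one with the largest difference. Members given by differences beyond that rule were chosen after their values were seen. Other lists name called genes and the 2 with the smallest p. Replicate numbers 1 to 3 occur in both groups. Between 2 arrays of the same number, the deviations from group means had correlations of 0.41, 0.22 and 0.17. All were above 0.1, so the numbers were treated as pairs in the replicate block. Arrays of the same number also share a set, so these correlations cannot tell pairing by number from the shared set. Alternatives changed the scaling, pseudocount, filter, variance model, blocks and arrays used.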

Additional observations from a re-analysis of the deposited data

Results flagged for a closer look

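Among the 7 control arrays, 3 of the 33 kinetochore genes had 1 array far from the others, by Dixon's gap test at its 95% level. Chance marks about 1 in 20 groups. Control 3 was the highest control for DAD1, at 0.094 against −0.24 for the next, and for SPC25, at −0.11 against −0.61. It is the only control of set 2, and αENaC 3, of the same set, was the highest αENaC array for both genes, at −0.24 and −0.14. Control 2 was the lowest control for OKP1, at −1.02 against −0.94 for the next.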

How the results depend on the processing

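The count of members called lower was 1 in the fit as reported and none with each array centred on its median, without normalization between arrays, on the z scores, with sets 1 and 2 and no block, with the replicate block and with near-identical arrays averaged (1 to 16 members lower at an unadjusted p under 0.05). The replicate block and the averaging called 0% of all genes, members or not. The count was 13 with the set as a fixed block (6.92% of all genes lower), 10 as a random block (4.75%), 18 in set 1 alone (32.1%) and 18 with array weights (31.9%), whose estimate did not converge, and 0 to 2 with 1 array left out. The count called higher was 1 in set 1 alone (28.5% of all genes), 11 with array weights (43.2%) and 0 otherwise. NNF1 was negative in all 25 alternatives. It lost its call at −0.48 with median centring (adjusted p = 0.0626), −0.32 without normalization (0.225), −0.083 on the z scores (0.0682), −0.47 in sets 1 and 2 with no block (0.0845), −0.47 with the replicate block (0.140) and −0.46 with near-identical arrays averaged (0.998), in a range of 5.77e-07 to 0.998 over 24 alternatives with a test. It was −0.55 to −0.48 with 1 array left out. Without normalization the median of all genes shifted to 0.16 and the members' median to 0.053, which is lower than that shift. Only 10 of 33 members were negative there, near the 27.3% of all genes. In the fit as reported it was 26 of 33, against 46.0% of all genes.

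The medians that moved by more than their spread between controls were these. Members: −0.038 on the z scores, −0.19 with the fixed, −0.19 with the random (−0.195) and −0.19 with the replicate block, −0.19 in sets 1 and 2 and −0.25 in set 2. MIND: −0.10 without normalization, −0.060 on the z scores and −0.46 with the filter on dim probe sets. Ndc80: −0.056 with median centring, −0.052 on the z scores, 0.27 with the filter, −0.14 with each of the fixed, random and replicate blocks and in sets 1 and 2, −0.12 in set 1, −0.058 in set 2 and −0.064 to 0.084 with 1 array left out. Spc105: 0.059 without normalization, 0.054 in set 1 and −0.33 in set 2. DASH: −0.016 without normalization, −0.040 on the z scores, −0.28 with array weights, −0.31 with the fixed and replicate blocks and in sets 1 and 2, −0.28 with the random block, −0.33 in set 2 and −0.28 to −0.16 with 1 array left out. Inner kinetochore: 0.13 without normalization, 0.071 with array weights and −0.22 in set 2. CBF3: 0.90 with array weights and −0.096 in set 2. Values scored on the z scale are in SD of an array and not in log2.

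Single genes among the 22 named turned sign as follows. Without normalization MTW1 was at 0.045, NDC80 0.053, SPC105 0.059, CSE4 0.050, MCM22 0.049, NSL1 0.074, DAD1 0.017 and SPC19 0.022, all under the shift of all genes. With array weights CSE4 was at 0.026, MCM22 0.16 and NSL1 0.16. On the z scores CTF19 was at −0.024 and CTF13 at −0.043. CTF19 was at −0.12 with the fixed and replicate blocks and in sets 1 and 2, −0.068 with the random block and −0.082 in set 1. CEP3 was at −0.0043 with the fixed and replicate blocks and in sets 1 and 2, and SPC105 at 0.054 in set 1. In set 2 alone, which has no test, SPC25 was at −0.039, CEP3 −0.17, CTF13 −0.027 and CTF19 −0.20. For the 11 further members, 65 of 274 signs under the alternatives were opposite. The cause was not tested.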

Other observations

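Among the mating and meiosis genes, FUS3, the mating kinase gene, rose by 0.36 ± 0.07 (adjusted p = 0.0392) in αENaC yeast, and it was the 1 gene called of 6 shared by haploids of both mating types. With the set as a fixed block FUS3 was called higher, at 0.35, and GPA1 lower, at −0.36, a gene singled out after its value was seen. The meiotic genes HOP1, at 1.40 ± 0.13 (adjusted p = 0.000712), and SPO11, which encodes the enzyme that cuts DNA to start meiotic recombination, at 0.58 ± 0.11 (adjusted p = 0.0293), passed the test in the higher direction. Their probe sets lay below background on average. With the replicate block none of the 3 was called: FUS3 was at 0.35 (adjusted p = 0.160), HOP1 at 1.25 (0.0951) and SPO11 at 0.56 (0.170). Of 12 meiosis and sporulation genes 9 were positive, with a median of 0.15 over all arrays, 0.19 within set 1 and 0.18 within set 2. None of the 7 a-cell or 4 α-cell genes was called, and with the fixed block 1, ASG7, was lower. The a-cell genes BAR1 and MFA2 were at 0.23 and −0.19, and the α-cell genes MF(ALPHA)1 and MF(ALPHA)2 at −0.12 and 0.25. STE18 was at −0.25.

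Among the controls alone, the kinetochore genes also differed by set. The controls of set 3 were higher than the mean of controls 1 to 3 for 10 of 33 genes, and the median was −0.14. Over all probe sets 2415 of 5498 were higher, with a median of −0.043. The members' median difference between αENaC and control was −0.12. CTF19, SPC24, CEP3 and NSL1 were at −0.90, −0.78, −0.56 and −0.53 in that comparison, while DAD4, DSN1, SPC34 and DAM1 were at 0.55, 0.47, 0.45 and 0.41.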
